A study of Saccharomyces cerevisiae with 8 samples.

Results

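The 26S proteasome and its regulator were followed in 32 genes, selected by their systematic names in the count tables, out of 6600 features in all. They comprise 14 genes of the 20S core particle (7 alpha and 7 beta subunits), 6 ATPases of the 19S regulatory particle (RPT1 to RPT6), 11 further 19S subunits named RPN, and RPN4, which encodes a transcription factor. RNA was sequenced from cultures of budding yeast, Saccharomyces cerevisiae, grown for 16 h in YPD at 30 degrees, late in the logarithmic phase. There were 2 libraries of H4K16Q (lysine to glutamine in the tail of histone H4), 2 of H4H18A (histidine to alanine in the same tail), 2 of the wild-type strain WT H4, 1 of H3E50A (glutamate to alanine in histone H3) and 1 of the wild-type strain WT H3. The strain field of the H4 mutant libraries names histone H3, whereas the design text of the series names H4, which is followed here. Each mutant was 1 strain of a library in the JDY86 background. That background is MATa, with the chromosomal hht1-hhf1 pair replaced by NatMX4 and the hht2-hhf2 pair replaced by a synthetic H3-H4 cassette with URA3, so the wild-type controls also carry the cassette. Its other alleles are met15Δ0, ura3Δ0, trp1Δ63, K2Δ0 (given as printed in the methods), leu2Δ0, his3Δ200 and can1::MFA1pr-HIS3, all shared by the 5 strains.

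The proteasome is the barrel-shaped protease that degrades ubiquitin-tagged proteins in the nucleus and cytoplasm. Its 20S core is built of stacked rings, of which the alpha rings form the gate and the beta rings hold the active sites, and the 19S particle recognises, unfolds and feeds in the substrate. In yeast the subunit genes are scattered over the chromosomes but share an upstream element, PACE (proteasome-associated control element), to which the zinc-finger protein Rpn4 binds. Rpn4 is itself a rapidly degraded proteasome substrate, so that it accumulates when proteasome activity falls short, and Pdr1, Pdr3, Yap1 and Hsf1 are known activators of the RPN4 gene. Proteasomes are known to be stored in granules when yeast enters quiescence, and chronological lifespan, the survival of non-dividing cells, is what the study examined in these strains by other experiments.

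The upstream element is shown first, because it is what the subunit genes share in sequence. The motif searched was GGTGGCAAA, on both strands, in windows of 250 bases before to 50 bases after the start codon taken from the RefSeq annotation of R64. It was present in 27 of the 31 subunit genes (87.1%), against 72 of all 6001 windows searched (1.2%), and was absent from the window of RPN4. Each of the 27 genes held 1 copy, between 84 and 183 bases before the start codon with a median of 120, and the copy read on the strand of the gene in 19 genes and on the other strand in 8. The following sequences of 29 bases give the motif in capitals, read in its own direction, for the active-site subunits that have it, for the copies nearest to and farthest from the gene, and for subunits described below.
PRE2, chrXVI:732184-732212: acagcaaaagGGTGGCAAAacgaagaata
PRE3, chrX:435035-435063: aacggaatccGGTGGCAAAaaagggaaaa
RPT6, nearest, 84 bases before the start codon, chrVII:411352-411380: atgcgagcgaGGTGGCAAAagttgtaata
PUP3, farthest, 183 bases before the start codon, chrV:349511-349539: tggcactgccGGTGGCAAAaaagtgcaaa
RPT1, on the other strand, chrXI:174048-174076: ttagttttcgGGTGGCAAAattcggtaat
RPN2, chrIX:220801-220829: atttattttcGGTGGCAAAactggataca
RPN11, chrVI:153259-153287: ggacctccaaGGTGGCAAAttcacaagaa
RPN12, on the other strand, chrVI:252398-252426: aatttcaatgGGTGGCAAAtaatgtgtag
In 18 of the 27 copies the base after the motif was A, and in 26 it was A or T.

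The 4 subunit genes without the motif each held a copy that differed from it by 1 base. These copies are shown because they differ at few positions, which are counted from 1 at the 5′ end of the motif. In PRE5, PUP1 and RPN8 the difference was G1A and in RPN10 it was A7G.
PRE5, chrXIII:901552-901580: cctattatagAGTGGCAAAattaaaaatt
PUP1, chrXV:631891-631919: aacccggccgAGTGGCAAAataccaaaaa
RPN8, chrXV:817085-817113: gggatacctcAGTGGCAAAtcgttactca
RPN10, on the other strand, chrVIII:498968-498996: tgtaaattccGGTGGCGAAaacccgcctg
With at most 1 difference, the motif was present in 31 of 31 subunit windows and in 454 of the 6001 windows (7.57%). The shorter string TGGCAAA, which is contained in the longer motif, was present in 30 of the 31 subunit windows (96.8%) and in 7.3% of all windows. A match is a description of the letters in the window and was not tested for binding.

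**Figure D1:**
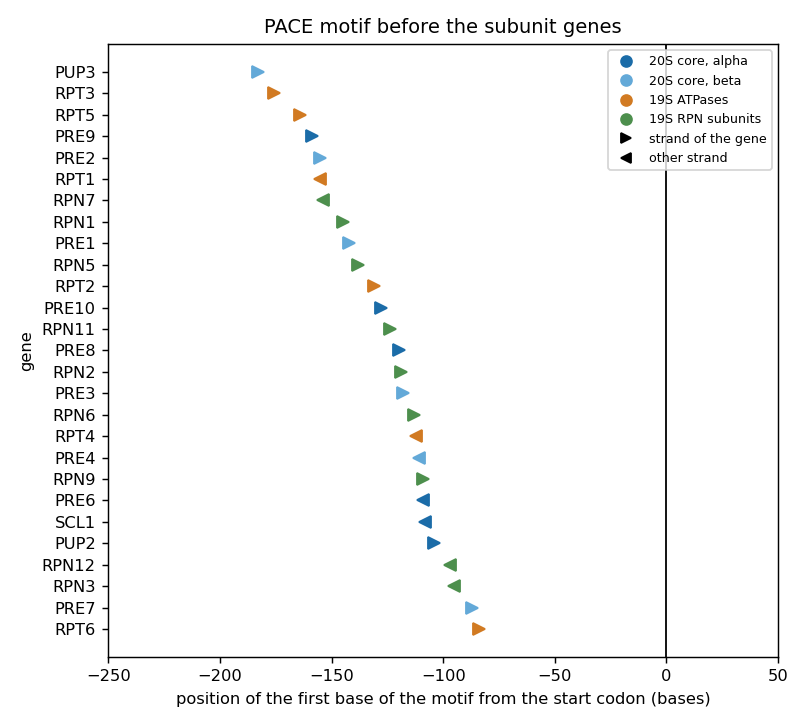
Position of the PACE motif in the 27 subunit genes that have it, as the distance of its first base from the start codon in bases, with the start codon at 0. Triangles that point right are copies on the strand of the gene and those that point left are copies on the other strand, and colours give the class of the subunit. All 27 copies lay between 84 and 183 bases before the start codon.

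RPN4 (YDL020C, chromosome IV, 415113 to 416708, on the minus strand) was searched in a longer window, 600 bases before the start codon to 50 after. The elements searched were those of its activators Pdr1, Pdr3 and Yap1, and none was searched for Hsf1. The Pdr1 and Pdr3 element was searched as TCCGTGGA or TCCGCGGA and the Yap1 element as TTACTAA, both on either strand. The first was found at 399 and 442 bases before the start codon and the second at 374 bases. These copies are shown with the element in capitals and were not tested for binding.
RPN4, Pdr1 and Pdr3 element, on the other strand, chrIV:417090-417117: cacgtgattaTCCGTGGAaaggttcgta
RPN4, Pdr1 and Pdr3 element, chrIV:417133-417160: aataacaagtTCCGTGGAactcaaagaa
RPN4, Yap1 element, chrIV:417066-417092: gtgatcgctaTTACTAAtagccgttta
Of all windows of that length, 2.1% held the first element and 14.3% the second. Of the 31 subunit genes, 1 held the first (3.23%) and 5 the second (16.1%).

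The libraries were of very unequal depth, between 621770 counts (H4H18A replicate 1) and 10529401 counts (H4K16Q replicate 1), and features that overlap ribosomal RNA took between 0.180% and 33.9% of them. Levels are given as CPM, in which each count is divided by its library total and a TMM factor, so that libraries share a common scale. All 32 genes passed the filter on low counts, and the lowest was PRE1 with 8 counts in H4H18A replicate 1, for which counting error alone gives an exact 95% Poisson interval of 3.45 to 15.8 counts. Such intervals cover counting error only. The biological replicates were prepared independently according to the methods, and they differed widely. The summed level of 9 stress genes (HSP12, HSP26, HSP42, HSP82, HSP104, SSA1, SSA4, CTT1 and DDR2) was 24730 and 17540 CPM in H4K16Q and 40780 and 2841 in H4H18A, against 33720 and 2249 in WT H4. In H3E50A it was 82450 CPM, against 3697 in WT H3. The sum of 132 ribosomal protein genes was 59390 and 104400 CPM in H4K16Q, 61710 and 41470 in H4H18A, 7013 and 43250 for the WT H4 strain, 12250 for H3E50A and 46110 for WT H3. The 2 WT H4 libraries therefore stood apart from each other, replicate 1 with high stress and low ribosomal protein levels. LEU2 had 0 counts in all 8 libraries and MET17 (MET15) had 0 or 1. HHT1 and HHF1, both replaced in the stated genotype, were counted at 36.7 to 685.5 CPM and at 11.7 to 191.3 CPM. The source of these reads was not tested. The a-cell receptor STE2, a marker of MATa, was at 31.2 and 2.68 CPM in H4K16Q and 14.1 and 4.59 in H4H18A, against 76.3 and 265 for WT H4. It was at 119 CPM in H3E50A, against 262 in WT H3, while the alpha-cell receptor STE3 did not exceed 14.1 CPM.

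Summed over the 31 subunits, the level was 4296 and 4400 CPM in H4K16Q and 4683 and 4532 in H4H18A, against 3006 and 4013 in WT H4, and it was 5216 in H3E50A, against 3658 in WT H3. All 5 mutant libraries thus lay above the 3 wild-type libraries in this sum, which is a description without a test and holds with TMM scaling only. As a share of all counts the subunits took 0.564% and 0.342% in H4K16Q and 0.320% and 0.464% in H4H18A, against 0.325% and 0.516% in WT H4, and 0.535% in H3E50A, against 0.360% in WT H3, so that the H4 strains overlapped. Features that overlap ribosomal RNA are part of the totals behind these shares. They took 1.88% of the counts in H3E50A and 33.9% in WT H3. In H4K16Q they took 0.254% and 0.180%, in H4H18A 16.3% and 33.6%, and in WT H4 0.99% and 21.15%. Their part in the differences of these shares was not tested. In RNA of whole cultures, fewer cells in a state and less RNA per cell cannot be told apart. WT H4 replicate 1 had the lowest level of the 8 libraries in 13 of the 31 subunits, and H3E50A the highest in 10. The same count was not made over all genes, so neither number is read as particular to the subunits. For the 20S core the sums were 1574 and 1760 CPM in H4K16Q and 1683 and 1387 in H4H18A, against 1124 and 1210 in WT H4, and 1733 in H3E50A, against 1191 in WT H3. The core sums of the mutants and of the wild types did not overlap with TMM scaling, whereas as a share of all counts WT H4 replicate 2 (0.156%) lay above H4K16Q replicate 2 (0.137%) and above both H4H18A libraries (0.115% and 0.142%). For the ATPases, which unfold the substrate, they were 904 and 857 CPM in H4K16Q and 1021 and 1122 in H4H18A, against 560 and 876 in WT H4, and 1154 in H3E50A, against 834 in WT H3. For the RPN subunits they were 1818 and 1783 CPM in H4K16Q and 1979 and 2024 in H4H18A, against 1321 and 1926 in WT H4, and 2330 in H3E50A, against 1633 in WT H3. With TMM scaling, in both 19S classes the H4K16Q libraries lay on either side of, or below, WT H4 replicate 2. The H4H18A libraries lay above both WT H4 libraries with that scaling only. As a share of all counts the ATPases took 0.0698% and 0.115% in H4H18A, against 0.0605% and 0.113% in WT H4. The RPN subunits took 0.135% and 0.207% in H4H18A, against 0.143% and 0.248% in WT H4, so that both classes overlapped. The core made up between 30.2% (WT H4 replicate 2) and 40% (H4K16Q replicate 2) of the subunit sum.

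**Figure D2:**
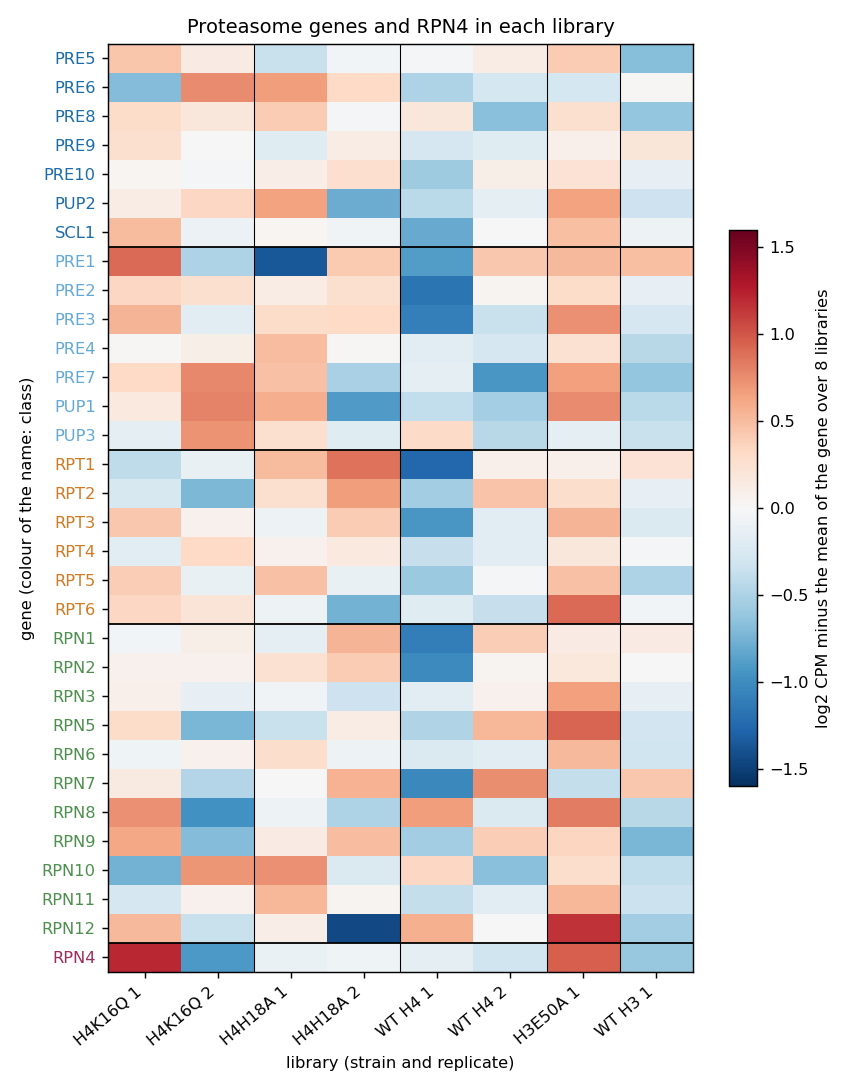
Level of each of the 32 genes in the 8 libraries, as log2 CPM minus the mean of that gene over the 8 libraries, with red for above and blue for below that mean. Columns are libraries by strain and replicate, and rows are genes ordered by class. The column of WT H4 replicate 1 holds the lowest value of 13 of the 31 subunits, a count not made over all genes.

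Per kb of coding length, the subunits stood well above most genes. The median subunit was at percentile 83.1 of 5716 coding genes, whose median was 34.03 CPM per kb, and RPN4 was at percentile 78.7. Averaged over the 8 libraries, the highest subunits were PUP3 (YER094C, beta-3) with 267 CPM per kb, the ubiquitin receptor RPN10 (YHR200W) with 261 and PRE6 (YOL038W, alpha-4) with 218. The lowest were the lid subunits RPN9 (YDR427W) with 54.4, RPN12 (YFR052W) with 60.2 and RPN7 (YPR108W) with 70.1 CPM per kb. Although the subunits enter the particle in fixed proportions, the highest level per kb within a library was 3.25 times the lowest in H4K16Q replicate 1, the most even, and 13.5 times in H4K16Q replicate 2, the least even. PUP3 was at 234 and 425 CPM per kb in H4K16Q and 309 and 226 in H4H18A, against 319 and 189 in WT H4, and at 235 in H3E50A, against 202 in WT H3. RPN9 was at 78.3 and 31.6 CPM per kb in H4K16Q and 55.8 and 71.8 in H4H18A, against 34.7 and 67.1 in WT H4, and at 64.8 in H3E50A, against 30.9 in WT H3. PUP3 and RPN9 did not overlap in any group, whereas the library values of every neighbouring pair in the order overlapped.

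**Figure D3:**
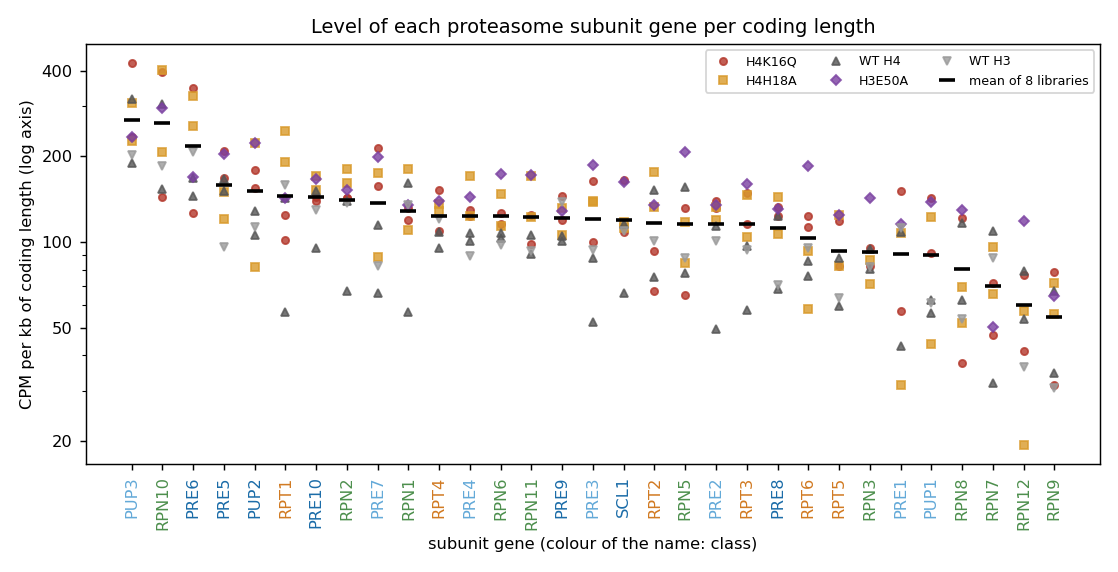
Level of the 31 subunit genes in CPM per kb of coding length, on a log axis, with 1 symbol per library, coloured by strain, and a bar for the mean of the 8 libraries. Genes are ordered by that mean, which ran between 267 CPM per kb for PUP3 and 54.4 for RPN9, and the libraries of each gene overlap those of its neighbours.

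In H4K16Q relative to WT H4, the 14 core genes each had a log2 fold change above 0, and none passed the test. By the quasi-likelihood test of edgeR (Benjamini-Hochberg adjusted), 0 of the 32 members had an adjusted p under 0.05, the lowest being 0.997, as did 0% of the 5669 genes tested. An unadjusted p under 0.05 was found for 0 members and 211 genes (3.72%), and DESeq2 called 0 members and 15 genes. The log2 fold change was above 0 in 26 of the 31 subunits, against 44.4% of all genes, and its median was 0.35, against -0.10 over all genes. It was above 0 in 14 of 14 core genes (median 0.73 for the beta and 0.40 for the alpha subunits), 5 of 6 ATPases (median 0.39) and 7 of 11 RPN genes (median 0.11). Both H4K16Q libraries lay above both WT H4 libraries in 13 subunits of 31, against 12.8% of all genes, and below them in 0, against 17.9%. Those 13 were PRE2, PRE3, PRE4, PRE5, PRE7, PRE9, PUP1, PUP2, RPT3, RPT4, RPT6, RPN2 and RPN6. Leaving out WT H4 replicate 2 gave a median of 0.71 and leaving out WT H4 replicate 1 gave 0.24. With scaling to total counts alone, which set the median of all genes at -0.26 and 36.2% of them above 0, it was 0.11, and both H4K16Q libraries lay above both WT H4 libraries in PRE7 and PUP1 alone (7.07% of all genes). Stress and ribosomal protein levels also differed between the WT H4 libraries, as given above, and their part in these differences was not tested.

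The largest log2 fold change in H4K16Q was that of PRE7 (YBL041W), which encodes beta-6. PRE7 had 114 and 156 CPM in H4K16Q, against 83.4 and 48.1 in WT H4, a log2 fold change of 1.02 (standard error 0.64). PUP1 (YOR157C), the beta-2 subunit with the trypsin-like site, had 72.2 and 112 CPM, against 49.2 and 44.2 in WT H4 (0.97, standard error 0.65). PRE3 (YJL001W), the beta-1 subunit with the caspase-like site, had 106.5 and 64.8 CPM, against 34.1 and 57.2 in WT H4 (0.91, standard error 0.59). PRE2 (YPR103W), the beta-5 subunit with the chymotrypsin-like site, had 120.5 and 114 CPM, against 42.7 and 98.8 in WT H4 (0.73, standard error 0.63). In each of the 3 active-site subunits the groups did not overlap, and none passed the test. The size of the change depended on single libraries. Leaving out WT H4 replicate 1 gave 0.24 for PRE2 and 0.57 for PRE3, and leaving out replicate 2 of that strain gave 1.601 and 1.47 for these genes. Without H4K16Q replicate 2, PUP1 was at 0.62, and without H4K16Q replicate 1 it was at 1.44.

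At the other end stood ATPase and lid genes. RPT2 (YDL007W), an ATPase that takes part in opening the gate of the core, had 122 and 88.6 CPM in H4K16Q, against 99.4 and 200.2 in WT H4, a log2 fold change of -0.51 (standard error 0.68). RPN7, a lid subunit, had 92.8 and 60.7 CPM, against 41.4 and 142 in WT H4 (-0.25, standard error 0.70). RPN5 (YDL147W), also of the lid, had 177 and 87.5 CPM, against 104 and 209 in WT H4 (-0.25, standard error 0.70). In all 3 genes the libraries of H4K16Q lay within or across the range of WT H4, and the sign was positive without WT H4 replicate 2, at 0.23 for RPT2, 1.03 for RPN7 and 0.48 for RPN5. Without H4K16Q replicate 2 it was positive for RPN7 (0.017) and RPN5 (0.17) too. RPN11 (YFR004W), the deubiquitinase of the lid, had 90.7 and 115 CPM, against 83.6 and 97.5 in WT H4 (0.17, standard error 0.59). RPN10 had 116 and 319 CPM, against 247 and 124 in WT H4 (0.22, standard error 0.82), so that each strain held 1 high and 1 low library.

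In H4H18A relative to WT H4, RPT1, PRE3 and PRE6 stood at the upper end and RPN12 at the lower end, and none passed the test. By the same test of edgeR with Benjamini-Hochberg adjustment, 0 of 32 members had an adjusted p under 0.05 (lowest 0.999), as did 0% of all genes, and DESeq2 called 0 members and 0 genes. At an unadjusted p under 0.05 there were 0 members and 126 genes (2.22%). The log2 fold change was above 0 in 24 of 31 subunits, against 44.4% of all genes, with a median of 0.38, against -0.088 over all genes. It was above 0 in 12 of 14 core genes (median 0.38), 5 of 6 ATPases (0.47) and 7 of 11 RPN genes (0.31). Both H4H18A libraries lay above both WT H4 libraries in 12 subunits and in RPN4, against 10.3% of all genes, and below them in PRE5 alone, against 15.8%. The 12 were PRE2, PRE3, PRE4, PRE6, PRE9, PRE10, RPT1, RPT3, RPT4, RPN2, RPN6 and RPN11. Leaving out WT H4 replicate 1 gave a median of 0.25. Scaling to total counts alone gave a subunit median of -0.12 with 7 of 31 above 0, but set the median of all genes at -0.56 with 19.8% of them above 0. With that scaling both H4H18A libraries lay above both WT H4 libraries in PRE6 alone (1.87% of all genes) and below them in 6 subunits, PRE5, PUP3, RPT6, RPN3, RPN8 and RPN12 (31.1%).

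RPT1 (YKL145W), an ATPase of the base, had 268 and 344 CPM in H4H18A, against 79.5 and 200.8 in WT H4, a log2 fold change of 1.13 (standard error 0.75). PRE3 had 89.4 and 90.6 CPM, against 34.1 and 57.2 in WT H4 (0.99, standard error 0.60). PRE6 had 249.5 and 195 CPM, against 111 and 129 in WT H4 (0.89, standard error 0.74). In these 3 genes both mutant libraries were the higher ones. The value of RPT1 became 0.62 when WT H4 replicate 1 was left out and 1.97 when its replicate 2 was, whereas PRE6 stayed between 0.70 and 1.12 with any library left out. For PRE2 the H4H18A libraries had 103.5 and 115 CPM (0.63, standard error 0.63, with 0.16 and 1.38 when replicate 1 or 2 of WT H4 was left out), and PUP1 had 96.5 and 34.4 CPM (0.46, standard error 0.66), so that PUP1 overlapped the WT H4 range. RPN11 had 158 and 112 CPM (0.57, standard error 0.59) and RPN10 had 325 and 167 CPM (0.40, standard error 0.83). RPN2 (YIL075C), a scaffold of the base, had 457 and 512 CPM, against 190.3 and 397 in WT H4 (0.72, standard error 0.84), with 0.30 and 1.37 under the same omissions.

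The lowest values in H4H18A were those of lid genes and of an alpha subunit. RPN12 had 47.1 and 16.1 CPM in H4H18A, against 65.1 and 44.2 in WT H4 (-0.84, standard error 0.70), and its lower value rests on 14 counts. RPN8 (YOR261C) had 70.6 and 52.8 CPM, against 118 and 63.7 in WT H4 (-0.57, standard error 0.71). PRE5 (YMR314W, alpha-6) had 84.7 and 105.5 CPM, against 106.9 and 118 in WT H4 (-0.24, standard error 0.59). Without H4H18A replicate 2, RPN12 was at -0.16, and without H4H18A replicate 1 it was at -1.77. RPN8 changed to -0.041 if WT H4 replicate 1 was omitted and to -0.92 if its replicate 2 was, and PRE5 was at -0.090 without H4H18A replicate 1. RPN12 and RPN8 overlapped between the strains, and PRE5 did not, although its nearest libraries were at 105.5 and 106.9 CPM.

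**Figure D4:**
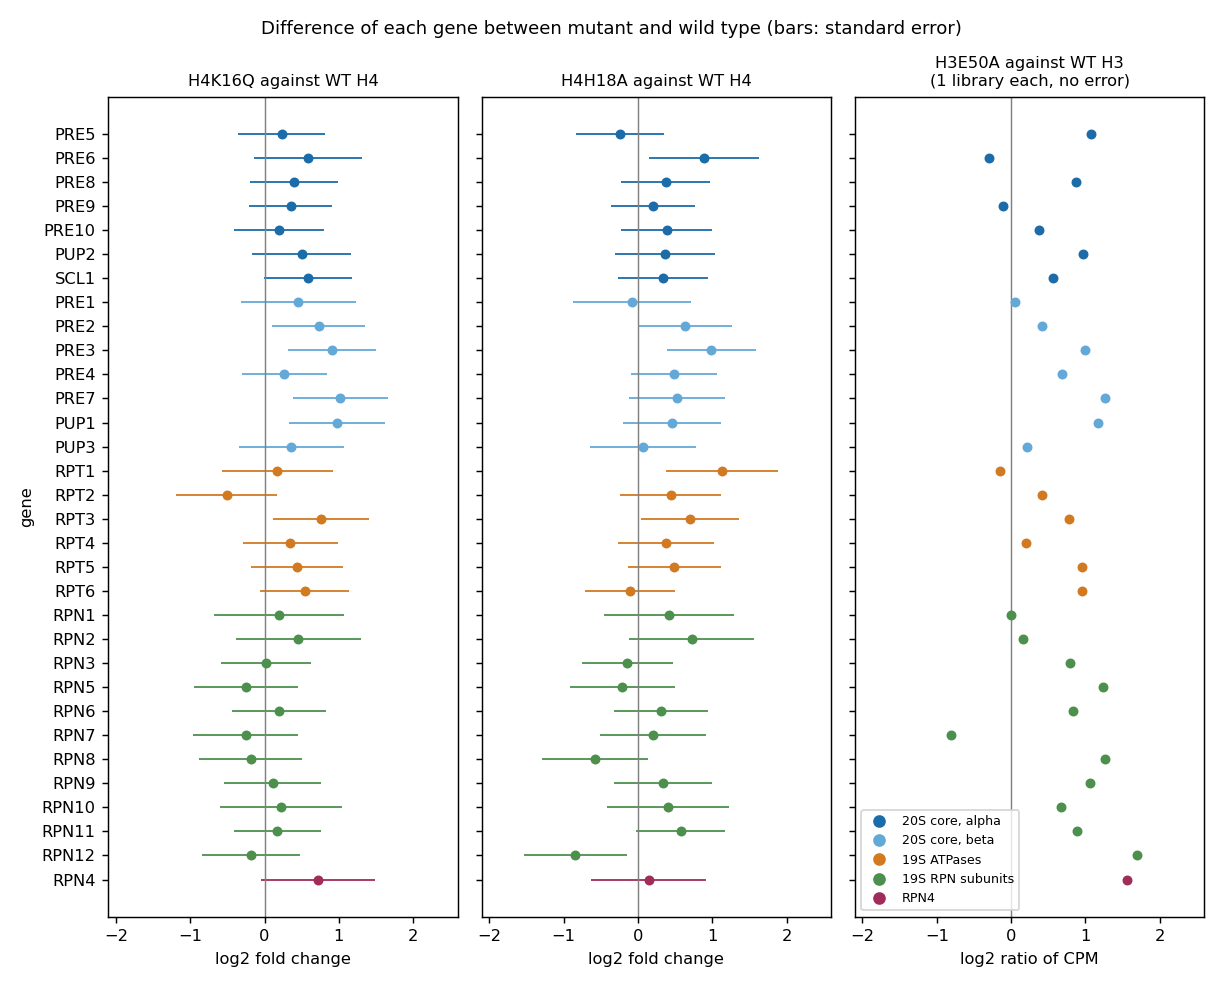
Log2 fold change of the 32 genes in H4K16Q and in H4H18A against WT H4, from edgeR with standard errors as bars, and log2 ratio of CPM in H3E50A against WT H3, without error because there was 1 library each. Colours give the class. Points lie to the right of 0 in 26, 24 and 27 of the 31 subunits, and most bars in the H4 mutants reach 0.

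Set directly against each other with TMM scaling, the H4 mutants had no consistent order in these genes. In H4K16Q relative to H4H18A, 0 of 32 members and 0% of all genes had an adjusted p under 0.05 by the quasi-likelihood test of edgeR (Benjamini-Hochberg adjusted). At an unadjusted p under 0.05 there were 0 members and 88 genes (1.55%), and DESeq2 called 0 members and 6 genes. The log2 fold change was above 0 in 15 of 31 subunits, against 55% of all genes, with a median of -0.033, against 0.068 over all genes. Both H4K16Q libraries lay above both H4H18A libraries in PRE5 and RPT6, against 14.9% of all genes, and below them in PRE10, RPT1, RPT2 and RPN2, against 11%. Scaling to total counts alone put 25 of 31 subunits above 0, against 72.2% of all genes, and 10 members changed sign. The subunit median was then 0.36, as was that of all genes. Both H4K16Q libraries then lay above in PRE7, PUP1, PUP3 and RPT6 (19.5% of all genes), and below in 0 subunits (3.07%). RPT1 was the lowest, with 142.5 and 175 CPM in H4K16Q, against 268 and 344 in H4H18A (-0.96, standard error 0.75). RPT2 had 122 and 88.6 CPM in H4K16Q, against 174 and 232 in H4H18A (-0.95, standard error 0.68). RPT6 (YGL048C), a further ATPase of the same ring, had 151 and 138 CPM in H4K16Q, against 113 and 71.1 in H4H18A (0.65, standard error 0.60). With TMM scaling, ATPases of 1 ring thus lay on opposite sides of 0, without passing the test. RPN12, with 63.02 and 34.2 CPM in H4K16Q, against 47.1 and 16.1 in H4H18A (0.66, standard error 0.69), and PRE1 (YER012W, beta-4), with 90.01 and 34.2 CPM, against 18.8 and 64.2 in H4H18A (0.54, standard error 0.79), were the other highest genes. RPN7, with 92.8 and 60.7 CPM, against 84.7 and 124 in H4H18A (-0.46, standard error 0.71), was the third lowest, and all 3 overlapped between the strains. The comparisons with WT H4 above share their control libraries and are given side by side only.

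In H3E50A relative to WT H3, most subunits were higher, by less than 2-fold in the majority. Since each strain had 1 library, these differences have no replicate check, and no p is given. The log2 ratio of CPM, with a prior count of 2, was above 0 in 27 of 31 subunits, against 49.3% of 5962 genes, and its median was 0.78, against 0 over all genes. More than 2-fold higher were 7 subunits, against 22.1% of all genes, and more than 2-fold lower 0, against 23.2%. The subunits thus passed 2-fold upward at about the rate of all genes, and downward in no case. RPN12 had 97.7 CPM in H3E50A, against 30.0 in WT H3 (log2 ratio 1.69). PRE7 had 144 CPM, against 59.9 in WT H3 (1.26), and RPN8 had 132, against 54.7 in WT H3 (1.26). RPN5 (1.23), PUP1 (1.17), PRE5 (1.08) and RPN9 (1.06) were the others past 2-fold, and PRE3, at 121 CPM against 60.6 in WT H3 (0.99), was just under it, followed by PUP2 (0.97), RPT5 (0.96) and RPT6 (0.95). The 7 genes encode alpha, beta and lid subunits, and of the 6 ATPases, 5 had a log2 ratio above 0.

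The 4 subunits that were lower in H3E50A came from 3 classes. RPN7 had 64.7 CPM in H3E50A, against 113 in WT H3 (-0.80). PRE6 had 129 CPM, against 159 in WT H3 (-0.30), RPT1 had 200.6, against 223 in WT H3 (-0.15), and PRE9 had 99.7, against 107 in WT H3 (-0.11). Of the subunits that bind or process the substrate, PRE2 had a log2 ratio of 0.42, RPN11 of 0.88 and RPN10 of 0.67. The 9 stress genes were all more than 2-fold higher in this pair, against 22.1% of all genes, with a median log2 ratio of 4.17. The share of these and of the low ribosomal protein level in the values of the subunits was not tested.

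The highest and the lowest RPN4 level of the 8 libraries both came from H4K16Q. RPN4 stood at 303.7 and 69.8 CPM in H4K16Q and at 122 and 126 CPM in H4H18A, against 119 and 105.3 CPM in WT H4. It was at 257 CPM in H3E50A, against 86.6 CPM in WT H3. Exact 95% Poisson intervals were 295 to 313 and 63.6 to 76.4 CPM for the H4K16Q libraries, so counting error does not cover that gap. The log2 fold change was 0.72 in H4K16Q (standard error 0.77), and the direction rested on replicate 1, since without it the value was -0.52. In H4H18A it was 0.14 (standard error 0.77), with both libraries above both of WT H4, and scaling to total counts alone gave -0.31. The Poisson intervals were 91.4 to 160.5 and 103.7 to 152.1 CPM in H4H18A. In WT H4 they were 109.7 to 129.8 and 89.7 to 122.8 CPM, so the intervals of these strains overlapped. The adjusted p (quasi-likelihood test of edgeR, Benjamini-Hochberg) was 0.997 in H4K16Q and 0.999 in H4H18A. In H3E50A the log2 ratio was 1.56, a 2.97-fold higher level than in WT H3, and larger than that of every subunit but RPN12.

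Across the 8 libraries, RPN4 and the mean log2 level of the 31 subunits had a Pearson r of 0.59 and a Spearman rho of 0.62. With TMM scaling the relation rested on the 2 libraries with the highest RPN4, without which r was -0.040 over the other 6. With scaling to total counts alone r was 0.89 and rho 0.95, and r was 0.84 without the 2 libraries farthest from the median RPN4, which were then both of H4K16Q. In both scalings RPN4 and the subunits of a library are divided by the same value, so a difference in that value moves both in 1 direction. Features that overlap ribosomal RNA took 0.180% to 33.9% of the total counts, and the TMM factors ran between 0.68 and 1.31. The part of this in r was not tested. These libraries share strains, culture states, depth and scaling, so the values are given as a description without a p. Taken singly, 24 of the 31 subunits had an r above 0 with RPN4 with TMM scaling, between -0.64 for PRE6 and 0.84 for RPN8. With scaling to total counts alone it was 29, between -0.69 for PRE6 and 0.90 for RPN8. The same count was not made over all genes. Among 5046 genes outside the subunits whose mean reached 10 CPM, RPN4 ranked 348 in its likeness to the subunit mean with TMM scaling.

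**Figure D5:**
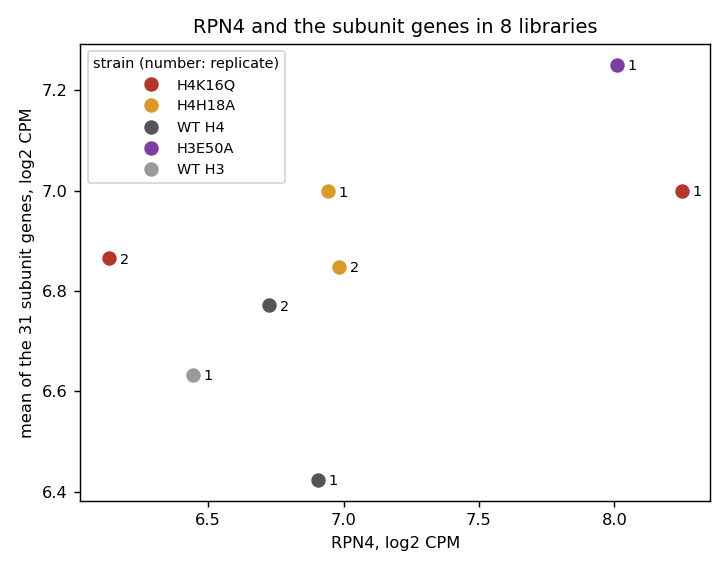
Mean log2 CPM of the 31 subunit genes against log2 CPM of RPN4 in the 8 libraries, coloured by strain and numbered by replicate. H4K16Q replicate 1 (304 CPM of RPN4) and H3E50A (257 CPM) stand to the right, and the other 6 libraries show no slope with TMM scaling (r = -0.040).

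The 5 genes whose pattern was most like the subunit mean, by Pearson r over 8 libraries among 4993 candidates, were PEX21 (0.94), ATP10 (0.93), MSN4 (0.92), ZPR1 (0.92) and SCH9 (0.92). PEX21 encodes a peroxisomal import factor, ATP10 an assembly factor of the mitochondrial ATP synthase, MSN4 a stress-responsive transcription factor, ZPR1 a zinc-finger protein and SCH9 a nutrient-signalling kinase. None of these 5 held the PACE motif in its window, and 1.2% of all windows searched held it. Within the subunits, agreement was uneven. PRE3 (r = 0.92), RPT5 (0.92) and SCL1 (0.87) lay closest to the mean of the other subunits, whereas PUP3 (-0.12), RPN10 (0.036) and RPN7 (0.063) did not follow it. PUP3 and RPN10 were also the subunits with the highest level per kb. The highest library exceeded the lowest by 1.44 times in PRE9 (YGR135W, alpha-3), the least variable by this measure, with 78.3 to 112 CPM, and by 6.08 times in RPN12, with 16.1 to 97.7 CPM.

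Subunits with and without the exact PACE motif were compared as a description. The median log2 fold change of the 27 with it and of the 4 without it was 0.35 and 0.22 in H4K16Q, and 0.38 and 0.084 in H4H18A. In H3E50A the medians of the log2 ratio were 0.68 and 1.12, the other way round. Of the other 45 genes with the motif, 42 were tested in the H4 strains, with a median of -0.027 in H4K16Q and 0.013 in H4H18A, and 44 in the H3 strains, with a median of 0.40. Of those 45, 5 belong to the lists followed below. They are the polyubiquitin gene UBI4, the ubiquitin-activating enzyme UBA1, the segregase CDC48, the proteasome adaptor ECM29 and YAP1, an activator of RPN4. The other 40 were not sorted by function.

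Genes that assemble, assist and feed the proteasome were followed in the same way. By the quasi-likelihood test of edgeR (Benjamini-Hochberg adjusted), 0 of the 47 genes in these lists and in the stress list had an adjusted p under 0.05 in any H4 comparison. Over all genes, the log2 fold change was above 0 in 44.4% in each H4 mutant. In H3E50A, 49.3% of all genes had a log2 ratio above 0 and 22.1% were more than 2-fold higher. Of the 10 assembly chaperones, 5 had a log2 fold change above 0 in H4K16Q (median 0.029), between -1.30 for HSM3 and 1.09 for NAS6, both of which act on the ATPase ring. In H4H18A it was 7 of 10 (median 0.25), between -0.37 for HSM3 and 1.05 for IRC25, a chaperone of the alpha ring. In H3E50A it was 8 of 10, between -0.41 for POC4 and 1.99 for NAS6, and 3 were more than 2-fold higher.

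Of 7 further proteasome proteins, 4 had a log2 fold change above 0 in H4K16Q and 1 in H4H18A. SEM1, a small lid protein, was the lowest in H4K16Q (-1.30) and the highest in H4H18A (0.54), and HUL5, a proteasome-bound ubiquitin ligase, was the lowest in H4H18A (-1.16). RPN13, a ubiquitin receptor, was the highest in H4K16Q, with 58.3 and 49.7 CPM in H4K16Q and 33.0 and 34.4 in H4H18A, against 33.2 and 44.8 in WT H4 (0.46 in H4K16Q and -0.21 in H4H18A). In H3E50A, SPG5, which acts on proteasome structure in stationary phase, had a log2 ratio of 3.11 with 297 CPM, against 33.9 in WT H3, and BLM10, an alternative activator of the core, had 1.11, while SEM1 had -1.32.

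Of 17 genes for ubiquitin, its enzymes and shuttle factors, 10 had a log2 fold change above 0 in H4K16Q (median 0.22) and 12 in H4H18A (median 0.22). The range ran between -0.67 for UBR2, a ligase subunit that targets Rpn4, and 1.08 for the conjugating enzyme UBC5 in H4K16Q. In H4H18A it ran between -0.45 for the ligase UFD4 and 0.73 for the shuttle factor RAD23. UBI4 had 704 and 476 CPM in H4K16Q and 876 and 90.6 in H4H18A, against 709 and 118 in WT H4, and 1261 in H3E50A, against 196 in WT H3 (log2 ratio 2.68). Its level was low in the same 2 H4 libraries as those of the stress genes, H4H18A replicate 2 and WT H4 replicate 2. In H3E50A, UBC5 had a log2 ratio of 1.78, while its close relative UBC4 had -0.47, the lowest of the list.

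Of the 4 known activators of RPN4, the log2 fold change was above 0 in 0 in H4K16Q, between -0.50 for PDR3 and -0.042 for YAP1, and in 1 in H4H18A, between -0.86 for PDR3 and 0.13 for YAP1. In H3E50A all 4 were higher, against 49.3% of all genes, between 0.58 for PDR3 and 1.16 for YAP1. More than 2-fold higher were 2 of them, against 22.1% of all genes. The stress genes had a median log2 fold change of 0.29 in H4K16Q, between -0.58 for HSP42 and 1.94 for CTT1. In H4H18A their median was 0.38, between -1.64 for DDR2 and 0.71 for SSA4. The libraries of H4H18A and those of WT H4 differed from each other more than 2-fold in the summed stress genes, as given above.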

How the data were processed

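RNA-seq counts per gene from 8 libraries of cultures at 16 h were used. The authors prepared stranded total RNA libraries, used Trim Galore for trimming, STAR for mapping to R64 and featureCounts for counting. Versions and the strand setting are not given in the sources used here. The deposited counts are whole numbers for 6600 features without normalization. Deposited edgeR tables hold the authors' own comparisons of single libraries and were not used.

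Statistics were computed in R 4.3.3. The 6 libraries of the H4 mutants and WT H4 entered 1 fit in edgeR 4.0.16 (TMM scaling, filterByExpr with minimum count 10 and minimum total count 15, quasi-likelihood test, Benjamini-Hochberg adjustment over 5669 genes, threshold 0.05). The standard error is the log2 fold change divided by the root of its F statistic. H3E50A was compared with WT H3 as log2 ratios of TMM-scaled CPM over 5962 genes, after adding a prior count of 2. DESeq2 1.42.0 was an alternative, and the others were other scalings, filters, controls and sample sets, a replicate block and each library left out. The test was also run on simulated counts with known changes. The share of these that it recovered is not given here, so the absence of calls does not show equal levels. Motifs were searched in 6001 windows around start codons of the RefSeq R64 annotation, the build of the counts, which matched 5917 of the 6600 features. No member overlaps another annotated gene.

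The members, lists and tests were chosen with earlier results of these data known. Named genes were RPN4, the 3 highest and 3 lowest subunits of each comparison, PRE2, PRE3, PUP1, RPN10, RPN11 and RPN13, subunits whose libraries did not overlap, the extremes per kb and of each list, and the 5 genes most like the subunit mean. Other genes named were chosen after their values were seen. Libraries held 621770 to 10529401 counts, and 3 counts, up to which a gene with 0 counts could lie, stood at 0.217 to 7.06 CPM.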

Additional observations from a re-analysis of the deposited data

How the results depend on the processing

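No member was called under any alternative in any H4 comparison. Scaling to total counts alone moved the median of the 31 subunits to 0.11 in H4K16Q and reversed it to -0.12 in H4H18A, where 18 of the 32 members changed sign, among them RPN4 (-0.31), PRE4 (-0.022), PRE9 (-0.24), PRE10 (-0.094), RPT4 (-0.092) and RPN6 (-0.20), against 5 in H4K16Q. That scaling moved the median of all genes to -0.26 in H4K16Q and -0.56 in H4H18A, so that the subunits stayed above it in both. Leaving out 1 library at a time gave medians of 0.24 to 0.71 in H4K16Q and 0.25 to 0.54 in H4H18A. In H4K16Q it gave RPN4 values of -0.52 to 1.42, RPT2 of -0.93 to 0.23, RPN7 of -0.89 to 1.03 and RPN5 of -0.67 to 0.48. Without WT H4 replicate 2, 1 member in each H4 mutant had an unadjusted p under 0.05, and edgeR called 58 genes in H4K16Q and 13 in H4H18A, against 0 otherwise. DESeq2 called 15 genes in H4K16Q against WT H4 and 6 in H4K16Q against H4H18A. The r of RPN4 with the subunits was -0.040 without the 2 libraries farthest from the median RPN4 level, but 0.84 with scaling to total counts alone. The cause of these changes was not tested. A replicate block gave medians of 0.35 in H4K16Q and 0.41 in H4H18A and changed no call. Same-numbered libraries deviated with correlations across genes of 0.13 for H4K16Q with WT H4 and 0.44 for H4H18A with WT H4. For H4K16Q with H4H18A the correlation was -0.011. The main fit had no replicate block, so a deviation shared by same-numbered libraries stays in its spread. The medians of the log2 ratio in H3E50A stayed between 0.64 and 0.83. Depth limits H4H18A most, where members had a median of 55 and 98 counts.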
